A study of Schizosaccharomyces pombe with 6 samples.

Results

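Transcript levels in fission yeast (Schizosaccharomyces pombe) lacking the gene fkh2 were compared with those in wild type. The genes were grouped by function, and the lists of mitosis genes and of meiosis genes are not described. The comparison used 4 of the study's 6 arrays, namely 2 of wild type (strain CG 209) and 2 of the deletion strain fkh2delta (strain CG 116). The other 2 arrays, of the fkh2-S2A allele in a strain also named CG 209, entered the model to help estimate the spread between arrays. All cultures were in mid-log growth in the rich medium YEL, and total RNA was labelled with biotin and hybridised to an Affymetrix yeast array. The sources used here give no full genotype of either strain. All 2936 S. pombe probe sets with a gene symbol were compared, which stand for 2899 genes where a probe set has a single gene.

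Fkh2 is a forkhead transcription factor. In fission yeast it is known for binding promoters of genes transcribed late in the cell cycle, together with the MADS-box protein Mbx1 and another forkhead factor, Sep1, and for holding those genes down outside mitosis. Rich medium holds glucose, amino acids and bases, so that in wild type cells the genes for other carbon sources and for poor nitrogen sources are mostly repressed.

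Values below are log2 signals of a probe set on 1 array, given for wild type arrays 1 and 2 and then for fkh2delta arrays 1 and 2. A change is the difference of the group means, fkh2delta minus wild type, on the log2 scale ± the standard error (SE) of the fit, with n = 2 arrays per group. A gene is said to have risen or fallen where limma's p-value, adjusted by the Benjamini-Hochberg method over the 2936 probe sets, was below 0.05. The labels do not say whether replicate arrays stem from independent cultures, and the p-values then cover only array-to-array spread, which could be of technical origin. In RNA from whole cultures, fewer cells using a gene and less RNA per cell cannot be told apart.

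The deleted gene was read first. On the wild type arrays fkh2 read 7.53 and 7.39, and on the fkh2delta arrays it read 4.34 and 4.05, below the background level of both. The difference was at least 4.86-fold (adjusted p = 5.3e-07, limma). The strains also differed at ura4, the gene of an enzyme of uracil synthesis that is often used as a marker in strain construction. Its signal was 12.79 and 12.56 in wild type against 5.40 and 6.17 in fkh2delta, a change of -6.89 ± 0.21 (adjusted p = 1e-07). The array's separate control probe sets for the 5′, middle and 3′ parts of ura4 read 10.98 and 10.73, 12.47 and 12.26, and 12.79 and 12.57 in wild type. In fkh2delta the same 3 probe sets read 4.0 and 4.0, 6.14 and 6.57, and 5.19 and 5.17, against a background of 5.18 and 5.17.

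Other genes that serve as auxotrophic markers stayed far above background in both strains. Of the 7 marker genes measured, with ura4 included, 5 fell. Besides ura4 these were the adenine synthesis gene ade6 (-1.38 ± 0.11) and the lysine synthesis gene lys1 (-1.07 ± 0.11). The histidine synthesis gene his3 (-0.79 ± 0.09) and the leucine synthesis gene leu1 (-0.38 ± 0.10) fell too. The call on leu1 was lost without fkh2delta replicate 2 (-0.29). The remaining pair, arg3 (-0.22 ± 0.11) and his7 (0.01 ± 0.09), did not pass, though arg3 passed after quantile normalization (-0.36) and after median (-0.35) or trimmed-mean (-0.34) centring. Of 7 genes that mark M cells sxa2 (0.47 ± 0.13) rose and mam3 (-0.65 ± 0.14) fell, and of 5 that mark P cells map4 (0.48 ± 0.10) rose and sxa1 (-0.37 ± 0.10) and map3 (-0.29 ± 0.11) fell. Of these calls those on sxa2, sxa1 and map3 were lost in 3, 2 and 7 of 17 other settings. Those splits became 0 and 4 for M cells and 1 and 4 for P cells after quantile normalization, and 1 and 3 for M cells after either centring, with the length trend removed or without fkh2delta replicate 1. Without fkh2delta replicate 2 they were 0 and 1 for M cells and 1 and 0 for P cells, the latter also without wild type replicate 2. The groups differ in strain, in ura4 and in fkh2, so that the effect of the fkh2 deletion cannot be told apart from that of the strain in any result below.

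The 2 strains differed at a large share of the probe sets. Of the 2936 probe sets 64.0% passed the test (1879), with 40.4% higher (1186) and 23.6% lower (693) in fkh2delta, and the 2 groups did not overlap for 87.1% of all probe sets. A change of at least 2-fold was reached by 12.9% (379), of which 245 were higher (8.34% of all) and 134 lower (4.56%). Counts of list members below are to be read against these shares. The median change over all probe sets was 0.16, and it was 0.03 after each array was centred on its median. The split of 1186 higher and 693 lower became 965 and 893 after quantile normalization, 979 and 908 after median centring and 989 and 894 after trimmed-mean centring.

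The size and direction of the change moved with the level of a transcript. When the probe sets were sorted by their level on the fkh2-S2A arrays, which are in neither group, the dimmest 20% had a median change of 0.47 with 56.6% higher and 14.5% lower. The brightest 20% had a median change of -0.05 with 17.2% higher and 30.3% lower. The 3 bands of 20% between had medians of 0.25, 0.19 and 0.11, from dim to bright. A list's level value below is the median, over its members, of the median change of the band that each falls in. The sorting is not independent of the change, since the fkh2-S2A strain has the same name as wild type. Genes below background in wild type, such as tlh2 (4.30 and 4.50) and pma2 (4.84 and 4.95), were below it on the fkh2-S2A arrays too. Such genes enter the dimmest band and have little room to fall. Their part in the trend and in the level values was not tested. The array's RNA control genes also differed, with a mean 3′ signal above the 5′ signal by 1.27 and 1.27 in wild type, 1.53 and 1.61 in fkh2delta, and 1.34 and 1.24 in fkh2-S2A. The part of these in the results was not tested. Removing each array's trend with gene length left 244 probe sets higher and 134 lower by 2-fold or more. The slopes per doubling of length were -0.03 and -0.01 in wild type, -0.07 and -0.06 in fkh2delta, and 0.07 and 0.11 in fkh2-S2A. They did not follow the RNA controls, so that this removal cannot test the part of level or of the 3′ difference.

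**Figure D1:**
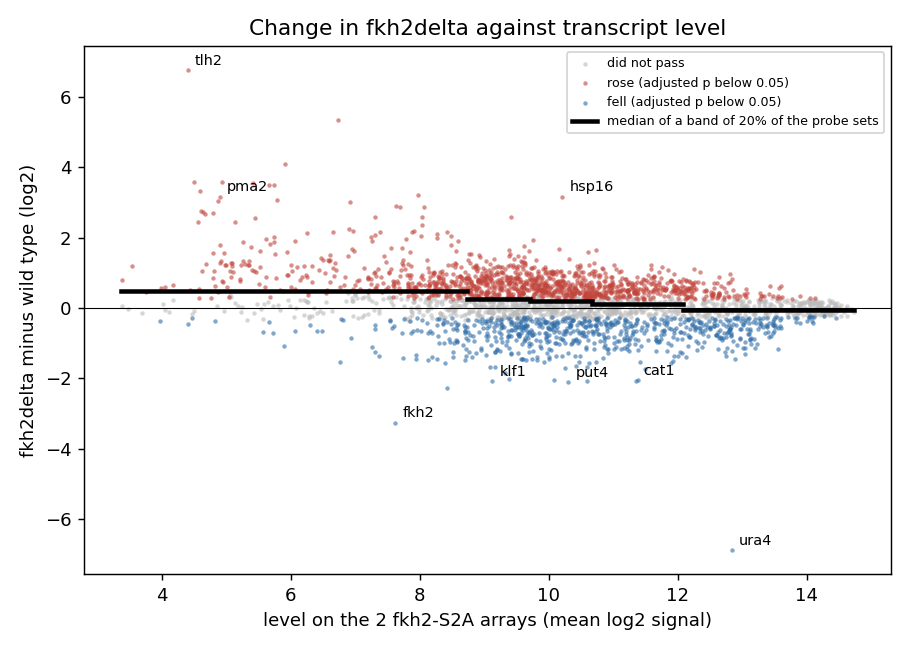
Each point is a gene, with its mean level on the 2 fkh2-S2A arrays (log2 signal) on the horizontal axis and its change in fkh2delta (log2) on the vertical axis, coloured by whether it rose, fell or did not pass limma's test. Black bars give the median change in each band of 20% of the probe sets, which goes from 0.47 in the dimmest to -0.05 in the brightest, and ura4, fkh2 and tlh2 lie far from the rest.

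Genes of hexose uptake and glucose repression were mostly lower in fkh2delta, unlike the galactose genes described below. Of 18 measured genes of hexose uptake and glucose repression 10 fell and 3 rose (12 and 1 after quantile normalization), with a median change of -0.44 against 0.16 over all probe sets and a level value of 0.22. The ght genes encode hexose transporters. The ght4 signal was 9.05 and 9.19 in wild type against 7.61 and 7.86 in fkh2delta, a change of -1.39 ± 0.11 (adjusted p = 2.3e-05). The ght1 signal was 7.64 and 8.14 against 6.54 and 6.51, a change of -1.36 ± 0.15. Both fkh2delta arrays were below both wild type arrays for each.

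The invertase gene inv1, whose secreted product splits sucrose, fell by the most of this list, from 9.09 and 9.32 to 7.71 and 7.82 (-1.44 ± 0.11, adjusted p = 1.6e-05). The co-repressor gene tup12, whose product acts with other factors in repressing genes, read 10.36 and 10.48 in wild type against 9.12 and 8.96 in fkh2delta (-1.38 ± 0.11). A few members went the other way. The gene ssp2, which encodes the catalytic subunit of the AMP-activated kinase, rose by 0.66 ± 0.11. The transporter gene ght3 rose by 0.60 ± 0.12, a call lost after quantile normalization (0.17). The transporter gene ght6 lay at background in wild type (4.95 and 5.10) and read 5.96 and 6.22 in fkh2delta, a difference of at least 1.67-fold, and its call was lost after quantile normalization (0.27).

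Most genes of glycolysis did not pass the test as deposited. Of 14 measured genes 3 fell and none rose, with a median change of -0.10 and a level value of -0.05, and 11 did not pass limma's test. The falls numbered 5 after quantile normalization, 7 after median centring, 6 after trimmed-mean centring and 6 under a mean-variance trend, and 1 with all probe sets tested or without wild type replicate 2, fkh2delta replicate 1 or fkh2delta replicate 2. The alcohol dehydrogenase gene adh4 was the member that changed by over 2-fold, from 11.44 and 11.56 to 10.15 and 9.77 (-1.53 ± 0.14, adjusted p = 3.6e-05). The other falls, of the glucose phosphate isomerase gene pgi1 (-0.29 ± 0.10) and the phosphoglycerate mutase gene gpm1 (-0.28 ± 0.09), were small. Both calls were lost with all probe sets tested (-0.29 and -0.28), without wild type replicate 2 (-0.24 and -0.27), without fkh2delta replicate 1 (-0.33 and -0.30) and without fkh2delta replicate 2 (-0.25 and -0.26).

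Genes of glycerol metabolism were mostly lower. Of 6 measured genes for making or using glycerol 4 fell and none rose, with a median change of -0.87. The mitochondrial glycerol-3-phosphate dehydrogenase gene gut2 read 11.46 and 11.54 in wild type against 9.59 and 9.23 in fkh2delta, a change of -2.09 ± 0.19 (adjusted p = 3.6e-05). The glycerol dehydrogenase gene gld1 read 9.13 and 9.39 against 7.95 and 7.61 (-1.48 ± 0.16). The groups lay apart for both genes, which their choice from among the 25 deepest falls required. The dihydroxyacetone kinase genes dak1 (-0.97 ± 0.10) and dak2 (-0.76 ± 0.16), which act in the step after gld1, fell too.

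Genes of the tricarboxylic acid (TCA) cycle and of pyruvate dehydrogenase, which feeds it, were also mostly lower. Of 18 measured genes 12 fell and 3 rose, with a median change of -0.70 against a level value of -0.05. The kgd2 gene, for a subunit of oxoglutarate dehydrogenase, read 12.12 and 12.23 in wild type against 10.94 and 10.90 in fkh2delta (-1.26 ± 0.09, adjusted p = 1.6e-05). The fumarase gene fum1 read 11.64 and 11.84 against 10.65 and 10.50 (-1.16 ± 0.11). Neither gene's groups overlapped. The pyruvate dehydrogenase gene lat1 (-1.12 ± 0.11) and the succinate dehydrogenase gene sdh1 (-0.93 ± 0.12) fell as well. The 3 rises were of pdx1, for another pyruvate dehydrogenase component (0.89 ± 0.14), and of the isocitrate dehydrogenase genes idh1 (0.45 ± 0.10) and idp1 (0.42 ± 0.09).

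Heme, the iron-holding group of cytochromes and catalase, is made by the products of the hem genes, of which 5 of 8 measured fell and none rose, with a median change of -0.43. The first enzyme's gene, hem1, read 11.64 and 11.84 in wild type against 10.60 and 10.43 in fkh2delta (-1.23 ± 0.11, adjusted p = 3.8e-05), with no overlap. The genes hem13 (-0.85 ± 0.11), hem3 (-0.77 ± 0.09) and hem2 (-0.60 ± 0.09) of later steps fell by less. Respiratory chain and ATP synthase genes were divided. Of 50 measured genes 17 fell and 12 rose, with a median of -0.12 and a level value of 0.11, and after median centring the split was 24 and 9, after trimmed-mean centring 23 and 9.

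The falls in that list were led by the cytochrome c oxidase gene cox5, from 13.03 and 13.06 to 11.88 and 11.71 (-1.25 ± 0.10), and included the ATP synthase gene atp4 (-0.86 ± 0.12) and the ubiquinone synthesis gene coq6 (-0.92 ± 0.10). The rises were led by coq3, also of ubiquinone synthesis (1.02 ± 0.13), and by atp11 (0.91 ± 0.11) and atp12 (0.94 ± 0.14), whose products help assemble ATP synthase. Galactose genes form a cluster that laboratory fission yeast does not normally use. The galactokinase gene gal1 read 9.90 and 9.59 in wild type against 11.32 and 11.50 in fkh2delta (1.66 ± 0.12, adjusted p = 1.5e-05). The epimerase gene gal10 rose by 1.36 ± 0.15, or by 0.65 after quantile normalization, so that 2 of 4 measured galactose genes rose and 1 fell (2 and 2 after quantile normalization). On wild type array 2 gal10 lay below background (5.22), and 1 of the 4 genes was not above background in either strain. The fall, of the transferase gene gal7 (-0.46 ± 0.13), was lost without wild type replicate 1 (-0.32) and without fkh2delta replicate 2 (-0.42).

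Several permeases that bring amino acids into the cell were lower. Of 11 measured genes 6 fell and 1 rose, with a median change of -0.54 against 0.16 over all probe sets and a level value of 0.19. The put4 signal, of a proline permease by its name, was 10.20 and 10.58 in wild type against 8.35 and 8.19 in fkh2delta, a change of -2.12 ± 0.13 (adjusted p = 5.3e-06). The cationic amino acid transporter gene cat1 read 11.32 and 11.58 against 9.51 and 9.24, a change of -2.07 ± 0.13 (adjusted p = 4.4e-06). For both genes the fkh2delta arrays lay below the wild type arrays, which their choice from among the 25 deepest falls required.

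Further permease genes behaved in the same direction. The per1 signal was 11.24 and 11.55 in wild type against 10.49 and 10.37 in fkh2delta (-0.97 ± 0.12). The isp5 signal was 6.13 and 6.37 in wild type and fell below background in fkh2delta (4.86 and 4.55), a difference of at least 2.10-fold. The gene that rose, meu22, was itself at background in wild type (5.15 and 5.20) and read 6.42 and 6.59 in fkh2delta, at least 2.24-fold higher, with a change of 1.34 ± 0.10 that was 0.56 after quantile normalization.

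Genes for using nitrogen sources, a list that also holds an ammonium transporter gene, showed a similar division. Of 14 measured genes 7 fell and 2 rose, with a median of -0.26. The arginase gene car1, whose product breaks down arginine, read 9.85 and 9.81 in wild type against 8.54 and 8.33 in fkh2delta (-1.39 ± 0.10, adjusted p = 1.6e-05). The GABA transaminase gene uga1 (-0.84 ± 0.13) fell too, as did gaf1 (-0.72 ± 0.12), which encodes a GATA-type transcription factor. The isp7 gene rose by 0.92 ± 0.19, and the ammonium transporter gene amt2 rose by 0.44 ± 0.11, a call lost without fkh2delta replicate 2 (0.40).

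Genes that make amino acids were mostly lower. Of 42 measured genes 26 fell and 6 rose, with a median change of -0.48 against a level value of -0.05, and the split was 29 and 1 after median centring and 29 and 2 after trimmed-mean centring. The arginine synthesis gene arg6 read 10.57 and 10.69 in wild type against 8.94 and 8.92 in fkh2delta (-1.70 ± 0.13, adjusted p = 1.7e-05). The sulphur amino acid gene cys2 read 10.39 and 10.52 against 9.05 and 8.82 (-1.52 ± 0.12). Neither overlapped. The tryptophan synthesis gene trp4 (-1.18 ± 0.12) and aro1 (-1.12 ± 0.09), for a many-step enzyme of aromatic amino acid synthesis, fell by over 2-fold as well. The widest rise was that of the proline synthesis gene pro1 (0.49 ± 0.12), lost without wild type replicate 2 (0.36) and without fkh2delta replicate 2 (0.38).

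Purine and pyrimidine genes, a list that also holds ura4 and ade6, had 11 falls and 1 rise among 24 measured, with a median of -0.14. The rise, of ade9 (0.35 ± 0.13), was lost in 6 of 17 other settings. The purine salvage gene hpt1 read 12.52 and 12.58 in wild type against 11.57 and 11.53 in fkh2delta (-1.0 ± 0.11), and gua2, of guanine nucleotide synthesis, fell by 0.89 on the log2 scale (SE 0.09). Vitamin and cofactor genes mostly did not pass, with 2 rises and 1 fall among 13 (1 and 5 after quantile normalization, 0 and 4 after either centring, 2 and 3 without wild type replicate 1, 0 and 1 without wild type replicate 2 or fkh2delta replicate 2). The rises, of met11 (0.37 ± 0.11) and thi4 (0.34 ± 0.09), were small and each was lost in 5 of 17 other settings. The fall was of the biotin transporter gene vht1, from 12.21 and 12.27 to 10.78 and 10.78 (-1.46 ± 0.12, adjusted p = 2e-05).

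Genes encoding transcription factors were mostly lower, and klf1 and cbf12 stood among the 25 deepest falls. Of 33 measured zinc finger and other factor genes 21 fell and 2 rose, with a median change of -0.53 against a level value of 0.25. The zinc finger gene klf1, known for its part in long quiescence, read 8.96 and 9.0 in wild type against 6.88 and 6.92 in fkh2delta (-2.08 ± 0.10, adjusted p = 1.2e-06). The zinc finger gene rsv2 read 9.68 and 9.95 against 8.49 and 8.33 (-1.40 ± 0.13). The arrays of the strains lay apart for both genes, which for klf1 its choice from among the 25 deepest falls required.

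The cbf12 gene, for a DNA-binding protein of the CSL family known for promoting cell adhesion, read 7.99 and 8.14 in wild type against 6.53 and 6.64 in fkh2delta (-1.48 ± 0.12). The helix-loop-helix gene esc1 read 10.59 and 11.00 against 9.50 and 9.51 (-1.29 ± 0.13). The CCAAT-binding factor genes php5 (-0.78 ± 0.12) and php3 (-0.51 ± 0.12) and the copper-sensing factor gene cuf1 (-1.02 ± 0.11) fell as well. The rises were of yox1, for a repressor that acts at G1/S genes (0.86 ± 0.14), and of reb1, for a factor that stops replication and transcription in ribosomal DNA (0.42 ± 0.10), whose call was lost without fkh2delta replicate 2 (0.39) and whose change was 0.28 after quantile normalization.

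Stress signalling genes were more often lower. Their list holds genes of the kinase cascade that ends in the kinase Sty1 and the factor Atf1, with its phosphatases. It also holds the metallothionein gene zym1. Of 30 measured genes 14 fell and 6 rose (18 and 4 after either centring), with a median of -0.27 and a level value of 0.19. The phosphatase gene ptc2 read 10.05 and 10.14 in wild type against 8.71 and 8.59 in fkh2delta (-1.45 ± 0.10, adjusted p = 9e-06). Another phosphatase gene of the family, ptc4, fell by 1.12 on the log2 scale (SE 0.11). The kinase kinase gene wis1 read 10.82 and 11.14 against 9.87 and 9.88 (-1.11 ± 0.13), and pcr1, for the partner of Atf1, read 9.43 and 9.81 against 8.77 and 8.64 (-0.92 ± 0.13).

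In the same list atf21 and atf31, for other bZIP factors, were below background in wild type and above it in fkh2delta. The differences were at least 1.65-fold for atf21 and at least 1.86-fold for atf31, with changes of 1.27 ± 0.14 and 1.35 ± 0.18 that were 0.52 and 0.62 after quantile normalization. The sensor kinase gene mak1 rose by 0.53 ± 0.12. The widest rise of the list was that of zym1 (1.98 ± 0.10), described below with the zinc and copper genes.

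Glucose is also sensed through cyclic AMP, and amino acids through the TOR kinases. Of 30 measured genes of these pathways 15 fell and 5 rose (18 and 3 after quantile normalization), with a median of -0.31. The G-protein genes of glucose sensing gpa2, an alpha subunit (-0.76 ± 0.12), and git5, a beta subunit (-0.72 ± 0.12), fell, as did the kinase gene sck1 (-0.71 ± 0.10) and ste20, for a subunit of TOR complex 2 (-0.72 ± 0.10). The git7 gene of the same pathway read 9.67 and 9.32 in wild type against 10.51 and 10.69 in fkh2delta (1.10 ± 0.14), and the genes tip41 (1.0 ± 0.11), of the TOR pathway, and rhb1, for the TOR activator Rheb (0.53 ± 0.09), rose too. The rise of git11, for a G-protein gamma subunit (0.48 ± 0.09), turned to -0.01 after quantile normalization.

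Genes for the cell wall and for the cell integrity pathway went both ways. Of 39 measured genes 14 fell and 11 rose, with a median of -0.10, and the order turned to 7 and 10 without wild type replicate 2, 9 and 10 without fkh2delta replicate 1 and 8 and 9 without fkh2delta replicate 2. The pathway's MAP kinase gene pmk1 read 11.13 and 11.19 in wild type against 9.69 and 9.59 in fkh2delta (-1.52 ± 0.12, adjusted p = 1.9e-05). The gene pmp1 of a phosphatase that acts on it (-0.89 ± 0.11) and rgf1, for an activator of the GTPase Rho1 (-0.95 ± 0.09), fell. The glucanase gene eng2 read 9.85 and 9.99 against 11.38 and 11.14 (1.34 ± 0.11), and the glucan synthase gene mok13 rose by 1.03 ± 0.12.

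Adhesion genes act in making cells stick to one another or to surfaces, and their list also counts the factor gene cbf12 described above. Of 8 measured genes 5 fell and 1 rose (5 and 0 after quantile normalization), with a median of -0.67. The flocculin gene pfl8 read 9.33 and 9.59 in wild type against 7.91 and 7.63 in fkh2delta (-1.69 ± 0.15, adjusted p = 2.8e-05). The genes ldb1 (-1.54 ± 0.14) and adn3 (-0.70 ± 0.16) fell as well. The rise, of adn2 (0.44 ± 0.09), was lost after quantile normalization (0.16). Among the ppk genes, which encode protein kinases, 9 of 22 fell and 5 rose (12 and 2 after quantile normalization, 12 and 4 after median centring). In that list ppk1 (-1.47 ± 0.14) and ppk18 (-1.27 ± 0.11) fell, while ppk31 read 5.66 and 5.60 in wild type against 7.40 and 7.78 in fkh2delta (1.95 ± 0.13).

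**Figure D2:**
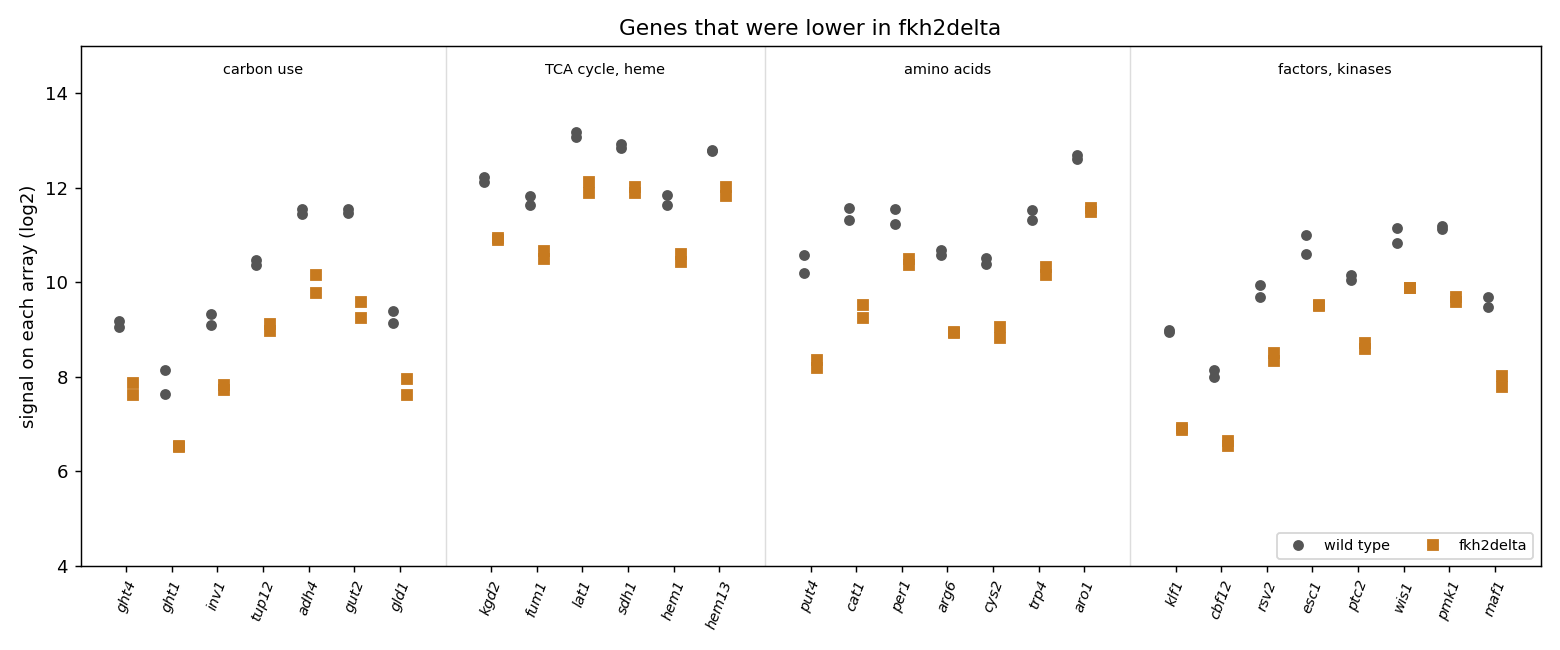
Signal on each array (log2) of genes that were lower in fkh2delta, with grey circles for the 2 wild type arrays and orange squares for the 2 fkh2delta arrays, ordered by function. Both squares lie below both circles for every gene drawn, while the groups did not overlap, in either direction, for 87.1% of all probe sets. The genes put4, cat1, gut2 and klf1 are each down by over 2 on the log2 scale.

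Stress response genes that code for protective proteins did not move as one. Of 28 measured heat shock and chaperone genes 11 rose (39.3%, near the 40.4% of all probe sets) and 1 fell (3.57%, against 23.6%). Their median was 0.17, with a level value of -0.05. The split became 9 and 8 after median centring, 10 and 8 after trimmed-mean centring and 13 and 6 under a mean-variance trend. The small heat shock gene hsp16 had the highest rise of the list, from 9.94 and 9.80 in wild type to 13.12 and 12.96 in fkh2delta (3.17 ± 0.13, adjusted p = 4.3e-07). The Hsp70 gene ssa1 read 9.57 and 9.87 against 11.23 and 10.98 (1.38 ± 0.14). The co-chaperone genes cdc37 (1.18 ± 0.12) and sti1 (1.03 ± 0.14), whose products act with Hsp90, rose, and the mitochondrial co-chaperone gene mdj1 fell by 0.50 on the log2 scale (SE 0.10).

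Oxidative stress genes had 9 rises (39.1%) and 6 falls (26.1%) among 23 measured, with a median of 0.06. These percentages are near the shares of all probe sets, 40.4% and 23.6%. After either centring the split was 7 and 7. The catalase gene ctt1, whose product breaks down hydrogen peroxide, read 12.04 and 12.02 in wild type against 10.11 and 9.86 in fkh2delta (-2.05 ± 0.14, adjusted p = 9e-06). The glutathione transferase genes went apart, since gst3 fell (-1.15 ± 0.12) and gst2 rose (1.21 ± 0.13). The glutathione reductase gene pgr1 fell by 0.55 on the log2 scale (SE 0.10). The thioredoxin gene trx2 (0.85 ± 0.10), the glutaredoxin gene grx2 (0.94 ± 0.14) and oxr1 (1.20 ± 0.10) rose.

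Iron genes changed in both directions, with most of the large changes among the rises. Of 17 measured genes 7 fell, 1 of them by over 2-fold, and 5 rose, 4 of them by over 2-fold. The siderophore transporter gene str3 read 5.95 and 6.49 in wild type against 8.98 and 9.18 in fkh2delta (2.86 ± 0.30, adjusted p = 6.7e-05). The iron oxidase gene fio1 read 7.89 and 8.37 against 9.60 and 9.58 (1.46 ± 0.20), and fip1, for the permease that works with it, rose by 1.03 ± 0.20. Both wild type arrays lay below both fkh2delta arrays for each, which for str3 its choice from among the 25 highest rises required.

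The siderophore synthesis genes sib1 and sib2 moved in opposite directions. The sib2 signal was 9.44 and 9.70 in wild type against 7.64 and 7.46 in fkh2delta (-2.02 ± 0.12, adjusted p = 3.9e-06). The sib1 signal was 9.48 and 9.51 against 10.60 and 10.70 (1.15 ± 0.09). Among 12 zinc and copper genes 4 fell and 2 rose. The metallothionein gene zym1, whose small product binds zinc, read 9.42 and 9.31 in wild type against 11.31 and 11.39 in fkh2delta (1.98 ± 0.10, adjusted p = 1.6e-06), cis4 rose by 0.73 ± 0.14, and the metal transporter gene fet4 fell by 0.97 on the log2 scale (SE 0.17).

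The copper transporter genes ctr4 (-0.57 ± 0.18) and ctr5 (-0.43 ± 0.12) fell, with fkh2delta array 1 well below array 2 for each (11.72 and 12.36 for ctr4). Without fkh2delta replicate 1 both calls were lost (-0.25 and -0.28), and without fkh2delta replicate 2 the changes were -0.88 and -0.58. Both calls were also lost without wild type replicate 2 (-0.53 and -0.41), and that of ctr4 without wild type replicate 1 (-0.60).

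Proton pump and ion transport genes had 8 rises and 6 falls among 29 measured (8 and 9 after quantile normalization, 6 and 9 after median centring, 6 and 8 after trimmed-mean centring, 7 and 8 without wild type replicate 1, 6 and 3 without fkh2delta replicate 2). The gene pma2, for a second plasma membrane proton pump, was below background in wild type (4.34 and 4.73) and read 7.30 and 8.11 in fkh2delta, at least 5.13-fold higher (adjusted p = 1.4e-05). The vacuolar pump genes vma10 (0.81 ± 0.11) and vma7 (0.66 ± 0.10) rose while vma13 fell by 0.60 on the log2 scale (SE 0.12). The kinase gene hal4, of cation tolerance (-0.93 ± 0.17), and the sodium-proton exchanger gene nhe1 (-0.64 ± 0.12) fell.

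Genes of sterol and fatty acid synthesis were more often lower than higher. Of 36 measured sterol and fatty acid genes 15 fell and 4 rose, with a median of -0.15 and a level value of 0.03. The fatty acid synthase gene fas2 read 12.87 and 13.00 in wild type against 11.75 and 11.47 in fkh2delta (-1.32 ± 0.12, adjusted p = 3.1e-05), and cut6, for acetyl-CoA carboxylase, read 12.53 and 12.49 against 11.67 and 11.66 (-0.85 ± 0.09). The early sterol pathway genes mvd1 (-0.93 ± 0.09) and erg10 (-0.82 ± 0.10) fell, and idi1, of the same pathway, rose by 0.55 ± 0.11. Of 16 phospholipid and sphingolipid genes 5 fell and 3 rose, with psd1 (-0.55 ± 0.12) the lowest and cho2 (0.53 ± 0.10) the highest. That split has no stable direction, since falls and rises were 6 and 2 after either centring but 2 and 3 with all probe sets tested, 1 and 3 without wild type replicate 2, and 1 and 2 without either fkh2delta replicate.

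Among 10 ABC and drug transporter genes 5 fell and none rose (7 and 1 after quantile normalization, 4 and 1 with the length trend removed, 2 and 1 without wild type replicate 2, 3 and 0 without fkh2delta replicate 2), including mfs2 (-1.28 ± 0.12) and pdr1 (-0.75 ± 0.10). Autophagy and vacuole genes had 9 falls and 7 rises among 27 measured (13 and 4 after quantile normalization, 14 and 4 after median and 14 and 5 after trimmed-mean centring, 5 and 4 without fkh2delta replicate 2). The atg1801 gene read 9.15 and 9.18 in wild type against 7.92 and 7.68 in fkh2delta (-1.37 ± 0.12), and the kinase gene atg1, which starts autophagy, fell by 0.62 on the log2 scale (SE 0.13). The gene atg8, for the protein that coats the forming membrane, rose by 0.78 ± 0.13.

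Splicing genes, whose products cut introns from messenger RNA, were mostly higher. Of 88 measured splicing genes 56 rose (63.6%, against 40.4% of all probe sets) and 4 fell, with a median change of 0.48 against a level value of 0.19. After quantile normalization the split was 45 and 11. The SF3b gene sap145 read 8.51 and 8.30 in wild type against 9.46 and 9.70 in fkh2delta (1.18 ± 0.13, adjusted p = 8.3e-05), and the splicing complex gene cwf18 read 9.45 and 9.43 against 10.40 and 10.72 (1.12 ± 0.16). The groups did not overlap for either. The widest rise of the list was that of prp18 (5.78 and 5.15 against 6.73 and 6.95, a change of 1.38 ± 0.19), which was 0.66 after quantile normalization and which lay at background on wild type array 2.

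The 4 splicing genes that fell included 2 for SR proteins, which bind RNA and help choose splice sites. The srp2 signal was 13.60 and 13.59 in wild type against 12.64 and 12.21 in fkh2delta (-1.17 ± 0.14), and prp19 fell by 0.76 on the log2 scale (SE 0.10). The call on srp1 (-0.44 ± 0.12) was lost without wild type replicate 1 (-0.38) and without fkh2delta replicate 1 (-0.39). That on prp5 (-0.37 ± 0.14) was lost whichever array of the comparison was left out (-0.47 to -0.26) and with all probe sets tested.

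RNA polymerase II and general factor genes had 38 rises and 8 falls among 71 measured, with a median of 0.34 and a level value of 0.19. The TFIIH gene tfb5 read 9.15 and 9.06 in wild type against 10.21 and 10.40 in fkh2delta (1.20 ± 0.12, adjusted p = 5.9e-05), and the elongation factor gene spt4 rose by 0.95 ± 0.09. The polymerase subunit gene rpb8 rose by 0.96 ± 0.17. Falls included the Mediator gene med14 (-1.08 ± 0.12), the TFIIA gene toa1 (-1.04 ± 0.11) and the TFIIH kinase gene mcs6 (-0.94 ± 0.09).

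For RNA polymerases I and III, which make ribosomal RNA, transfer RNA and other small RNAs, 16 of 32 genes rose and 6 fell (13 and 9 after either centring, 11 and 3 without wild type replicate 2, 8 and 3 without fkh2delta replicate 2). The TFIIIC gene sfc3 (1.03 ± 0.10), the shared subunit gene rpc10 (1.0 ± 0.12) and the large subunit gene rpc1 of polymerase III (0.72 ± 0.10) rose. The gene maf1, for a repressor of polymerase III, read 9.47 and 9.69 in wild type against 8.02 and 7.79 in fkh2delta (-1.68 ± 0.13, adjusted p = 1.9e-05). The polymerase I genes rpa2 (-0.98 ± 0.10) and rrn6 (-0.90 ± 0.12) fell as well.

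Genes for assembling ribosomes and for their proteins were read as separate lists. Of 53 ribosome biogenesis genes 27 rose and 10 fell (20 and 13 after either centring, 16 and 8 without fkh2delta replicate 2), with a median of 0.34, from rises of rrp6, a subunit of the nuclear exosome (1.32 ± 0.21), lsg1 (0.97 ± 0.09) and noc3 (0.88 ± 0.12) to falls of utp15 (-1.11 ± 0.10) and nog1 (-1.04 ± 0.11). Of 122 ribosomal protein genes 107 did not pass limma's test, with 3 rises, 12 falls, a median of -0.01 and a level value of -0.05. Their changes ran from -0.59, for rps1401, to 0.54, for rpl1603. The other rises, of rps2401 (0.30 ± 0.10) and ubi1 (0.29 ± 0.11), were lost in 8 and 9 of 17 other settings. The number of ribosomal protein genes called depended on the setting, with 36 rises and 40 falls under a mean-variance trend, 1 and 35 after either centring and 1 and 23 with the length trend removed. It was lower, 1 and 5, with all probe sets tested. Leaving out 1 array gave 2 and 5 (wild type replicate 1), 1 and 5 (wild type replicate 2), 1 and 4 (fkh2delta replicate 1) and 1 and 2 (fkh2delta replicate 2).

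Translation factor genes had 4 rises and 6 falls among 29 measured (2 and 10 after either centring, 7 and 9 under a mean-variance trend). Leaving out 1 array gave 6 and 4 (wild type replicate 1), 2 and 3 (wild type replicate 2) and 2 and 4 (either fkh2delta replicate). The kinase genes hri2 (1.0 ± 0.10) and gcn2 (0.82 ± 0.14), whose products slow translation through eIF2, rose, and the eIF3 gene moe1 fell by 0.72 on the log2 scale (SE 0.11). Genes that charge or modify transfer RNA had 14 rises and 11 falls among 38 (11 and 13 after median centring, 12 and 13 after trimmed-mean centring, 11 and 12 after quantile normalization). The shares, 36.8% and 28.9%, lay near the 40.4% and 23.6% of all probe sets. Synthetase genes were found on both sides, since lrs1 for leucine (-1.23 ± 0.14), frs1 for phenylalanine (-1.13 ± 0.13) and krs1 for lysine (-0.96 ± 0.10) fell, while vrs2 for valine read 8.26 and 7.99 in wild type against 9.78 and 10.08 in fkh2delta (1.80 ± 0.16). The Elongator gene elp4 fell by 1.45 on the log2 scale (SE 0.12).

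Genes for messenger RNA ends, export and decay had 23 rises and 9 falls among 51 (21 and 15 after quantile normalization, 21 and 14 after either centring). These were 45.1% and 17.6% of the list, against 40.4% and 23.6% of all probe sets. The 3′ end gene seb1, whose product binds RNA and the polymerase, had a mean of 11.67 in wild type and 9.95 in fkh2delta (-1.72 ± 0.11, adjusted p = 4.4e-06). The export receptor gene mex67 (-0.75 ± 0.14) and the deadenylase complex genes not1 (-0.75 ± 0.10) and rcd1 (-0.82 ± 0.11) fell. The widest rises of the list were those of cid11, from 5.58 and 5.40 to 9.05 and 8.95 (3.51 ± 0.10, adjusted p = 7e-08), and of crp79, at background in wild type and at least 5.16-fold higher, both of which are also on the list of meiosis genes. The gene red1, known for the removal of meiotic transcripts in growing cells, rose from 8.13 and 7.65 to 9.03 and 9.11 (1.18 ± 0.15). Nuclear pore and transport genes had 13 rises and 11 falls among 48 (11 and 15 after quantile normalization, 11 and 14 after median and 11 and 13 after trimmed-mean centring, 9 and 11 without wild type replicate 2, 7 and 11 without fkh2delta replicate 2), from nup211 (1.19 ± 0.12) to nup37 (-1.0 ± 0.13).

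**Figure D3:**
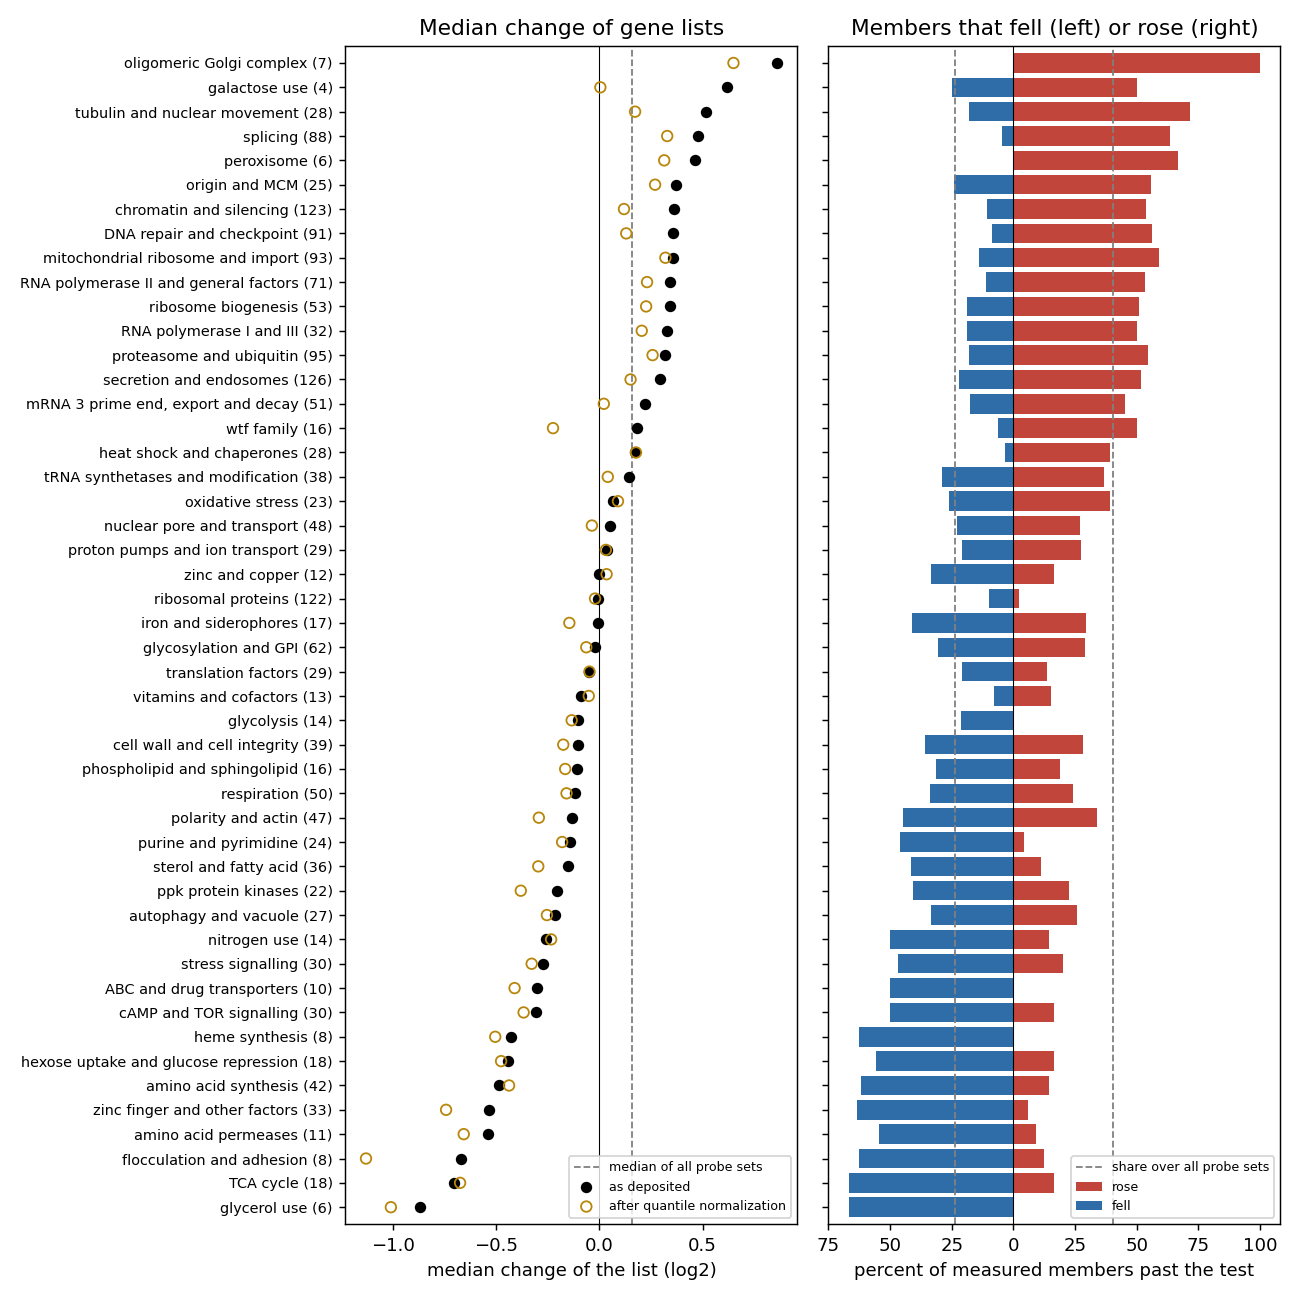
Left, the median change in fkh2delta (log2) of each gene list as deposited (black) and after quantile normalization (open circles), with the number of measured members in brackets and a dashed line at the median of all probe sets (0.16). Right, the percent of members that fell (left of 0) or rose (right of 0), with dashed lines at the shares over all probe sets, 23.6% and 40.4%, where glycerol and TCA cycle genes lie at the lower end and the oligomeric Golgi complex at the upper end.

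Chromatin and silencing genes had 66 rises and 13 falls among 123 measured, with a median of 0.36 and a level value of 0.25. The split was 55 and 33 after quantile normalization, 57 and 23 after median centring and 58 and 23 after trimmed-mean centring. The gene clr4, for the enzyme that methylates histone H3 in heterochromatin, read 6.57 and 6.51 in wild type against 7.98 and 8.10 in fkh2delta (1.5 ± 0.09, adjusted p = 5.3e-06). The gene tas3, for a protein of the RNA interference complex, read 8.35 and 8.37 against 9.65 and 9.78 (1.36 ± 0.09), and the sirtuin gene hst2 rose by 1.10 ± 0.11. Falls included phf1 (-1.27 ± 0.12), the histone deacetylase complex gene prw1 (-1.18 ± 0.11) and the SAGA gene ada1 (-1.01 ± 0.11).

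DNA repair and checkpoint genes had 51 rises and 8 falls among 91 measured (37 and 16 after quantile normalization), with a median of 0.36 and a level value of 0.25. The gene rmi1, for a partner of a helicase and a topoisomerase in resolving joined DNA, read 7.04 and 6.89 in wild type against 9.0 and 9.06 in fkh2delta (2.06 ± 0.10, adjusted p = 1.2e-06). The nuclease gene eme1 read 6.31 and 6.48 against 7.75 and 7.98 (1.47 ± 0.13). The excision repair gene swi10 had the deepest fall of the list (-0.63 ± 0.13). Replication origin genes had 14 rises (56%, against 40.4% of all probe sets) and 6 falls (24%, near the 23.6% of all) among 25. Rises were those of dna2 (1.14 ± 0.10) and the kinase gene hsk1 (1.02 ± 0.10), among others. Falls included the helicase gene mcm2 (-1.36 ± 0.13) and the polymerase delta subunit gene cdc1 (-1.0 ± 0.13).

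Tubulin genes and those of their helpers went in opposite directions. Of 28 measured genes of tubulin, its cofactors, the spindle pole body and nuclear movement 20 rose and 5 fell (12 and 7 after quantile normalization), with a median of 0.52 and a level value of 0.25. The tubulin folding cofactor genes alp1 (8.89 and 8.96 against 10.61 and 10.78, a change of 1.77 ± 0.10) and alp31 (9.22 and 9.15 against 10.91 and 10.77, a change of 1.66 ± 0.10) rose. The spindle pole body genes pcp1 (7.55 and 7.05 against 9.25 and 9.55, a change of 2.10 ± 0.17) and cut12 (1.51 ± 0.13) rose too.

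The tubulin genes themselves were lower. The alpha-tubulin gene nda2 fell by 0.70 on the log2 scale (SE 0.09), the beta-tubulin gene nda3 by 0.52 (SE 0.10) and the second alpha-tubulin gene atb2 by 0.45 (SE 0.11), a call lost without fkh2delta replicate 2 (-0.33). The gene mto2, whose product helps start microtubules in the cytoplasm, read 10.32 and 10.53 in wild type against 9.04 and 8.82 in fkh2delta (-1.49 ± 0.13).

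Polarity and actin genes were divided, with 21 falls and 16 rises among 47 measured and a median of -0.13. The actin-branching complex genes arc3 (-0.86 ± 0.12) and arp3 (-0.82 ± 0.11), the capping protein gene acp2 (-0.74 ± 0.10) and the scaffold gene scd2 (-0.73 ± 0.11) fell. The GTPase gene rho5 read 9.03 and 9.18 in wild type against 11.20 and 11.31 in fkh2delta (2.15 ± 0.11, adjusted p = 1.6e-06). The type V myosin genes myo52 (8.46 and 8.33 against 9.80 and 10.23, a change of 1.62 ± 0.14) and myo51 (1.12 ± 0.11) rose as well.

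Genes for traffic between membranes were higher more often than lower. Of 126 measured secretion and endosome genes 65 rose (51.6%, against 40.4% of all probe sets) and 28 fell (22.2%, near the 23.6% of all). Their median was 0.29, with a level value of 0.19. The vps1302 gene read 8.80 and 8.77 in wild type against 10.66 and 10.78 in fkh2delta (1.94 ± 0.11, adjusted p = 2.4e-06). The genes sec39 (1.53 ± 0.16), trs130, of a tethering complex at the Golgi (1.46 ± 0.13), and vps26, of the retromer that recycles receptors (1.32 ± 0.15), rose. Another retromer gene, vps5, fell by 1.14 on the log2 scale (SE 0.12), as did the coat gene sec31 (-1.24 ± 0.17) and the Golgi mannosyltransferase gene anp1 (-1.41 ± 0.11).

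The conserved oligomeric Golgi complex tethers vesicles within the Golgi, and all 7 of its measured genes rose, by 0.66 to 1.12, with a median of 0.86 against a level value of 0.25. The cog3 signal was 8.22 and 8.16 in wild type against 9.21 and 9.40 in fkh2delta (1.12 ± 0.11, adjusted p = 4.8e-05), and the cog2 signal was 11.00 and 11.05 against 12.11 and 12.17 (1.11 ± 0.10). The genes cog8 (0.89 ± 0.13) and cog6 (0.86 ± 0.11) lay near the median of the complex. Glycosylation and anchor genes had 18 rises and 19 falls among 62 (15 and 24 after either centring, 16 and 9 without wild type replicate 2, 16 and 12 without fkh2delta replicate 1, 12 and 11 without fkh2delta replicate 2), from the mannosyltransferase gene omh4 (1.54 ± 0.10) to the anchor synthesis gene gpi12 (-1.39 ± 0.12).

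Proteasome and ubiquitin genes had 52 rises and 17 falls among 95 measured, with a median of 0.32 and a level value of 0.19. The ubp10 gene, named for a family of enzymes that remove ubiquitin, read 8.17 and 7.80 in wild type against 9.79 and 10.01 in fkh2delta (1.92 ± 0.20, adjusted p = 6.5e-05). The gene of the ubiquitin-like protein ned8 (1.06 ± 0.15), the ubiquitin chain gene ufd2 (1.01 ± 0.11) and the proteasome gene rpn1302 (0.98 ± 0.16) rose. The F-box gene pof1 (-1.25 ± 0.14) and the ubiquitin-conjugating enzyme gene ubc6 (-1.13 ± 0.13) fell.

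Mitochondrial ribosome and import genes had 55 rises and 13 falls among 93 measured, with a median of 0.35 and a level value of 0.11. The split was 48 and 20 after quantile normalization and 43 and 21 after either centring. The mitochondrial ribosome gene mrp17 read 7.84 and 7.78 in wild type against 10.13 and 10.24 in fkh2delta (2.37 ± 0.12, adjusted p = 1.7e-06), and the fusion gene fzo1 rose by 1.16 ± 0.12. Falls included the import channel genes tom40 (13.13 and 13.15 against 12.03 and 11.95, a change of -1.15 ± 0.10) and tim22 (-1.21 ± 0.11) and the ribosome genes mrpl10 (-1.30 ± 0.16) and mrpl37 (-1.29 ± 0.13). Of 6 peroxisome genes 4 rose and none fell (3 and 1 after either centring), with pex6 (1.22 ± 0.15) and pex14 (0.95 ± 0.12) the highest.

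**Figure D4:**
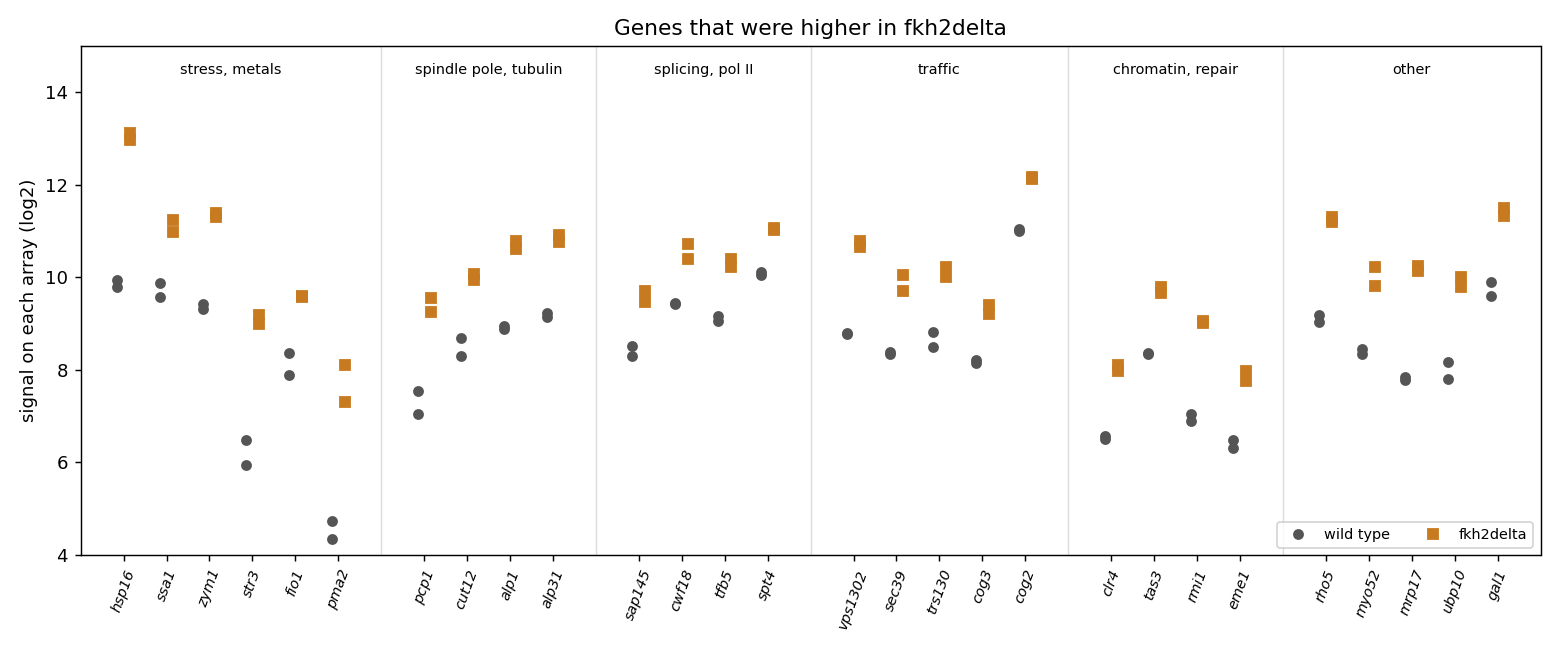
Signal on each array (log2) of genes that were higher in fkh2delta, with grey circles for the 2 wild type arrays and orange squares for the 2 fkh2delta arrays, ordered by function. Both squares lie above both circles for every gene drawn, while the groups did not overlap, in either direction, for 87.1% of all probe sets. The wild type signals of pma2 (4.34 and 4.73) lie below the background level.

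The widest single rise was that of tlh2, a gene of the chromosome ends related to RecQ helicases. Its signal was 4.27 and 3.94 in wild type, below background, and 10.70 and 11.05 in fkh2delta, so that it was at least 46.2-fold higher (adjusted p = 1.4e-08). These values are of the brightest of its 4 probe sets, and the others did not give the same size. They were at least 18.9-fold and at least 3.08-fold higher, and the remaining one was not above background in either strain. Near-identical copies of this gene lie at other chromosome ends, and the array cannot assign its signal to 1 copy. The wtf genes, a family that kills spores which do not inherit them, had 8 rises and 1 fall among 16 measured. That split became 4 and 6 after quantile normalization and 5 and 3 after either centring, and 3 of the 16 were not above background in either strain. The widest rise was that of wtf20, at background in wild type and at least 1.16-fold higher. The fall, of wtf15, was from 8.49 and 8.66 to 6.45 and 6.13 (-2.28 ± 0.16, adjusted p = 1e-05), and near-identical family members may share its signal.

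Several further genes with the widest changes lie outside the lists. The gene cuf2, for a factor of meiotic transcription, was below background in wild type (4.77 and 4.72) and read 7.34 and 7.57 in fkh2delta, at least 4.31-fold higher. The meiotic cyclin gene rem1 was at least 3.75-fold higher and the meiotic telomere gene bqt2 at least 3.06-fold higher, each from below background in wild type. The gene tht1, needed for nuclear fusion in mating, read 7.55 and 7.60 against 10.13 and 10.19 (2.59 ± 0.10, adjusted p = 3.9e-07).

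Rises outside meiosis were seen for the anaphase-promoting complex gene apc10 (8.33 and 8.11 against 10.38 and 10.41, a change of 2.17 ± 0.12), the kinetochore gene nnf1 (2.16 ± 0.14), rga9 (2.06 ± 0.10) and the translesion polymerase gene rev1 (1.90 ± 0.13). Also higher were uds1 (2.59 ± 0.14) and otg2 (2.13 ± 0.11). The falls outside the lists were led by rds1, from 10.59 and 10.72 to 8.76 and 8.46 (-2.05 ± 0.12, adjusted p = 3.2e-06). The chromatin remodelling gene sol1 (-1.65 ± 0.13), the methionine transfer RNA synthetase gene rar1 (12.09 and 12.30 against 10.60 and 10.67, a change of -1.55 ± 0.11), art1 (-1.56 ± 0.12) and etp1 (-1.55 ± 0.14) fell as well.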

How the data were processed

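RNA from 3 groups of 2 arrays was measured, and per the labels' protocols total RNA was labelled with biotin and hybridised to an Affymetrix yeast array. The authors deposited 1 log2 value per probe set and array, and how they summarised and normalised the probes is not stated in those sources. Their range gave the log base. The deposited values were used without further normalization.

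Of 10928 probe sets, 2936 matched an S. pombe gene of assembly ASM294v3 in the annotation given for the array, of which 2917 had a single gene. The highest-mean probe set stood for a gene, since 14 genes had several. The background level was the 95th percentile of the 2601 probe sets listed with genes of other species or none, 5.17 to 5.35 on the 6 arrays. Where both arrays of a group lay at or below it, the fold is a bound ("at least"), from the bright group's mean and the dim group's mean with each dim array set to the higher of its value and the background.

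Tests used limma 3.58.1 in R 4.3.3, with 1 model over all 6 arrays and group as the sole term, 3 residual and 5.73 prior degrees of freedom, two-sided, with Benjamini-Hochberg adjustment and a threshold of 0.05. In simulated data over 2936 probe sets, 67 were changed by 0.5 log2, 67 by 1 and 66 by 2. These steps recovered 61.2%, 94.0% and 100% of them, with 5.56% false among the calls. The simulated noise was independent between probe sets and held no trend with level. Far fewer probe sets were changed than were called in the data (1879), so that these rates do not carry over to the reported calls. The number of arrays limits the precision.

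The lists and named genes were chosen with earlier results of these data known. Named genes are fkh2 and the strain markers, genes from among the 25 highest rises and 25 deepest falls with groups that do not overlap, and genes from among the 4 widest rises and 4 widest falls of each list. Not all genes that this rule allows are printed, and which were left out was decided with their values known. The lists of mitosis genes and of meiosis genes were not described. Other lists still hold such genes, among them cid11 and crp79 of the meiosis list and the spindle pole body genes pcp1 and cut12. The named genes outside the lists include genes of mitosis and meiosis too. Some genes are counted on several lists, among them cbf12, rrp6, met11 and zym1. Lists were given counts and medians without a test. Alternatives were 3 scalings, removal of a trend with gene length, 2 filters on dim probe sets, all probe sets, 2 other priors, a 2-group fit, array weights, a replicate block and each array left out.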

Additional observations from a re-analysis of the deposited data

Results flagged for a closer look

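The annotation given for the array does not list 5177 of its probe sets that are not controls, and these enter no comparison above. Of them, 2082 lay above the background level on all 4 arrays of wild type and fkh2delta. When all probe sets were tested with limma, 641 of these were higher and 576 lower in fkh2delta, with 90 higher and 145 lower by at least 2-fold. They are unnamed here.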

How the results depend on the processing

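Over 17 other settings the number of probe sets called ran from 1407 to 2012 (1879 as reported), within 1.5 times of the reported counts for rises and for falls. The exception among the counts was that of rises of at least 2-fold, 245 as reported and 123 after quantile normalization, where falls of that size were 196. Leaving out 1 array of the comparison gave 1407 to 1793 calls, with 205 to 289 rises and 118 to 166 falls of at least 2-fold. Of the 347 called genes that the naming rule allows, printed or not, 292 kept their direction and call in all 17 settings, 54 lost the call in at least 1 and git11 turned to -0.012 after quantile normalization. The counts of lists that moved by over 1.5 times or turned are given beside each list, apart from the replicate block, under which ribosomal proteins had 1 rise and 5 falls, glycolysis 0 and 1, and phospholipid genes 3 and 2, and the crossed block, under which M-cell genes had 2 and 3. The change of his7, not called, turned to -0.12 after median centring, -0.11 after trimmed-mean centring, -0.0079 with the length trend removed and -0.036 without wild type replicate 2 (it was 0.051 without wild type replicate 1). The replicate numbers did not pair the arrays, since deviations of same-numbered arrays from their group means correlated at -0.18 between wild type and fkh2delta, -0.09 between wild type and fkh2-S2A and -0.27 between fkh2delta and fkh2-S2A. With the replicate number as a block 1768 probe sets were called, 1121 higher and 647 lower, and with the numbers crossed in fkh2delta, chosen after seeing the data, 1890. The block ended the calls on pgi1, gpm1, prp5, map3, rps2401 and ubi1, and the crossed block that on prp5. Low signal limits the 34 probe sets not above background in either strain, and no other pseudocount was tried, since the values were deposited on a log scale.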
